A study of Mus musculus with 2 samples.

Results

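This account follows 34 genes of the interferon-gamma-responsive antigen presentation programme in immune cells sorted from mouse tumours. The genes were chosen by symbol: 20 genes of MHC class I presentation, 13 interferon-gamma-inducible GTPases, and Cd274, which encodes the checkpoint ligand PD-L1 and was read alone. All 34 were present among the 32285 genes of the deposited count tables.

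The data comprised 2 single-cell RNA libraries, made with 10x Genomics 3′ v3 chemistry from sorted tumour cells that carried CD45, found on white blood cells, together with CD90.2, which is displayed by T cells and part of the innate lymphocytes. The mice were C57BL/6, a common inbred strain. The genotype label was WT for 1 library and Dapl1-KO for the other, and the comparison asks how T cells in tumours differ when Dapl1 is missing. The position of the Dapl1 deletion, the tumour line, the age of the mice and the number of animals per library are not given in the sources used here. With 1 library per label there was no replicate check and no test between labels. Where values are paired, the library labelled WT comes first. Every interval below is an exact 95% interval that covers counting error only.

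MHC class I molecules display peptides from inside the cell to CD8 T cells. The immunoproteasome cuts proteins into peptides, the TAP transporter carries them into the endoplasmic reticulum, and tapasin and its relatives help load them onto a heavy chain paired with beta-2 microglobulin. Interferon-gamma, which activated T and NK cells secrete, raises these genes through receptor-bound kinases and the transcription factor IRF1. It also induces guanylate-binding proteins (the Gbp genes) and immunity-related GTPases (Iigp1, Igtp, Irgm1, Irgm2 and Ifi47), which act on membranes around intracellular microbes.

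The promoters of the members carried different short motifs, and windows around a few matches are shown because the matches were shared out differently between the GTPases and the class I genes. RefSeq promoters (build GRCm38.p6, 250 bases before to 50 after each start) were available for 26 of the 34 members, 17 class I genes and 8 GTPases with Cd274. In all, 3 motifs were searched on both strands. They were the interferon-stimulated response element (GAAA, any 2 bases, GAAA), the gamma-activated site TTCNNNGAA and the kappaB sequence GGGATTCCC, and they can overlap each other. The response element matched in 7 of the 8 GTPases (Gbp2, Gbp3, Gbp5, Gbp7, Igtp, Irgm1 and Irgm2, not Ifi47) and in 5 of the 17 class I genes (B2m, Erap1, H2-T22, H2-T23 and Psme1). Of the 32851 promoters searched, 3.44% held it. The windows below are 30 bases long, upstream of the start and written 5′ to 3′ on the gene's strand, with the response element in capitals. In Gbp2, Gbp3, Gbp7 and H2-T23 the element lies on the opposite strand and is therefore read in reverse complement.
Gbp2 (chr3:142620594-142620623, gene on the plus strand): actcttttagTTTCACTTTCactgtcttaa
Gbp3 (chr3:142559989-142560018, plus): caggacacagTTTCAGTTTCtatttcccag
Gbp7 (chr3:142530273-142530302, plus): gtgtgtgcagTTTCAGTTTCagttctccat
Igtp (chr11:58199512-58199541, plus): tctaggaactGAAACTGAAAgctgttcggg
Irgm2 (chr11:58214903-58214932, plus): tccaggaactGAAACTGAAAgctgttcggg
B2m (chr2:122147538-122147567, plus): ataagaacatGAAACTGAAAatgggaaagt
H2-T23 (chr17:36032806-36032835, minus): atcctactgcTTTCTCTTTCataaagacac

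The gamma-activated site matched in 4 of the 8 GTPases (Gbp5, Gbp7, Igtp and Irgm2) and in 2 of the 17 class I genes (H2-M3 and Psmb8), against 8.3% of the promoters searched. The kappaB sequence matched in 4 heavy-chain genes, H2-K1, H2-D1, H2-Q6 and H2-Q7, in none of the GTPases, and in 0.353% of the promoters searched. The capitals below mark that sequence. No match of the 3 motifs was found for H2-Q4, another heavy-chain gene with values of its own below. Psmb9, Psmb10 and Tapbp had no match either, and not every member had a promoter to search. A match describes letters in a window and is not evidence of binding.
H2-K1 (chr17:34000438-34000467, minus): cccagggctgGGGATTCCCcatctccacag
H2-D1 (chr17:35262914-35262943, plus): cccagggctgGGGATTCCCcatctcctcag
H2-Q7 (chr17:35439013-35439042, plus): cccatggctgGGGATTCCCatctccccagt

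Some members share sequence or position with other genes, so their counts are less certain. In the GRCm38 gene models, Gbp4, Gbp8 and Gbp9 overlap on 1 strand of chromosome 5, Igtp and Irgm2 overlap on 1 strand of chromosome 11, Tapbp overlaps Zbtb22, and Ifi47 overlaps Olfr56. Of the 90-base stretches in the last 500 transcript bases, Gbp6 shares 65.5% with another gene, chiefly Gbp10, and Psme2 shares 39.4%, chiefly with Psme2b. For H2-T23, H2-Q6 and H2-Q4 the share was 12.2%, 10.9% and 9.49%, for Tapbpl it was 2.92%, and the other 28 members were under 1%.

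Messages of the targeted gene were present under both labels. Dapl1 had 1534 and 974 counts in naive or central memory CD8 cells (174.8 and 191.6 CPM, log2 ratio 0.13) and 2713 and 2640 counts in all CD8 cells (41.7 and 30.6 CPM, -0.45). A 3′ count outside the deleted part checks nothing, and that part is not given, so Dapl1 did not show which library lacks the gene. The libraries labelled WT and Dapl1-KO held 154408101 and 206322042 unique molecular identifiers (UMIs) over 16673 and 19662 barcodes. Of these barcodes 13132 occurred in both, and only the larger copy was kept. The filters left 8992 and 10098 cells (median 7356 and 8463.5 UMIs per cell). Cells were gated by marker genes, which gave 4271 and 5212 CD8 T cells, 556 and 552 CD4 T cells without Foxp3, 620 and 720 regulatory T cells, 393 and 491 NK cells, 30 and 75 myeloid cells, and 4 and 5 melanocytic cells. The melanocytic gate is too small for any comparison. The 9 myeloid gate genes summed to between 10.2 and 41.5 CPM (counts scaled to 1e6 in all) in the lymphocyte gates, against 7217 and 6018 CPM in the myeloid gate. The NK marker list was nearly as high in the myeloid gate (4207 and 5176 CPM) as in the NK gate (4520 and 5762 CPM), and it includes Tyrobp and Fcer1g, which myeloid cells also express. Sex-linked messages differed with the label. Of the CD8 cells, 3049 and 5 had Xist or Tsix and no Y-linked UMI, and 629 and 3857 had the reverse. The label, the sex of the cells and the library cannot be told apart. Both libraries contain Y-linked cells, which are compared below. In barcodes found in both, the smaller copy had a median of 26.3% of the UMIs of a larger copy labelled WT. The median was 10.8% for a larger copy labelled Dapl1-KO. Whether messages crossed between the libraries was not tested, so the Y-linked cells do not separate sex from label.

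Within each library, class I genes and GTPases followed different orders across the CD8 states. States were assigned by marker genes, and the summed level of a list is given in CPM of all counts in the state. The 20 class I genes were lowest in naive or central memory cells, at 5607 and 7114 CPM. They stood at 7420 and 9592 CPM in effector cells without PD-1 and at 8007 and 10177 CPM in PD-1 progenitor cells, which carry Tcf7 or Slamf6. They were highest in cells with PD-1 and TIM-3 (9725 and 12367 CPM) and in cells with PD-1 only (9633 and 12232 CPM). Those last states were neighbours in the order, and their intervals overlapped in both libraries (9657 to 9793 against 9526 to 9740 CPM, and 12292 to 12443 against 12134 to 12330 CPM).

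The 13 GTPases had another order. Their sum was 300.03 and 357.6 CPM in naive or central memory cells and 306.5 and 379.5 CPM in effector cells without PD-1. It was lower in cells with PD-1 and TIM-3 (231.6 and 269.2 CPM), in cycling cells (182.8 and 220.1 CPM) and in cells rich in granzymes D to G (172.5 and 201.3 CPM). Interferon-stimulated cells were the exception, with high values for both lists. There the class I sum was 9188 and 11942 CPM and the GTPase sum was 522 and 474 CPM, over 41 and 190 cells.

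**Figure D1:**
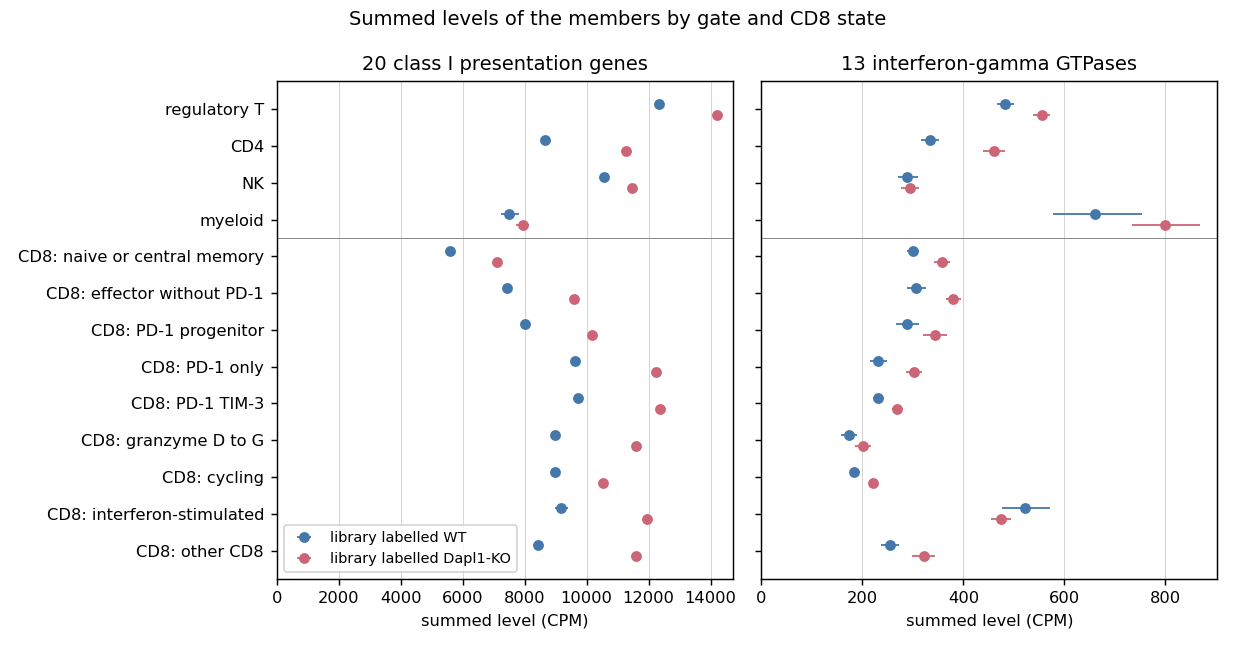
Summed level in CPM (x axes, linear, from 0) of the class I genes (left) and of the GTPases (right) in each gate and CD8 state (rows). Points are the 2 libraries and bars are 95% Poisson intervals of the counts; class I values are lowest in naive or central memory CD8 cells (5607 and 7114 CPM), where GTPase values (300.03 and 357.6 CPM) are above those of cycling cells.

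Member by member, 15 of the 20 class I genes were higher in cells with PD-1 and TIM-3 than in naive or central memory cells in both libraries, and none was lower. A gene was counted here and below when it was at least 25% higher or 20% lower (0.32 on the log2 scale, called the limit), reached 20 CPM, and had an interval that excluded 0. Of all genes measured, 47.3% were higher and 13.6% lower by the same rule. The inducible proteasome subunits had large ratios. Psmb9 stood at 221.7 and 355.7 CPM, against 75.2 and 125.7 CPM, 2.95-fold and 2.83-fold. Psmb8 was 2.62-fold and 2.11-fold higher, and Psme2, a subunit of the PA28 proteasome activator, was 2.28-fold and 2.04-fold higher. H2-T23, which encodes Qa-1, the ligand of NKG2A, was 2.35-fold and 2.24-fold higher. H2-Q4 and H2-Q6 stayed within the limit, at 0.861-fold and 1.02-fold for H2-Q4 and 0.963-fold and 1.12-fold for H2-Q6.

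Cycling cells carried the steepest immunoproteasome values. Psmb9 stood at 332.5 and 445.7 CPM there, 4.42-fold and 3.55-fold over naive or central memory cells, and Psmb8 was 3.26-fold and 2.44-fold higher. In all, 15 of 20 class I genes were higher and 1 was lower, against 54.7% and 17.8% of all genes. The lower gene was Nlrc5, the transactivator of class I promoters, at 0.673-fold and 0.788-fold. B2m differed less, at 1.22-fold and 1.17-fold. Cells rich in granzymes D to G had 13 of 20 class I genes higher and 1 lower, H2-Q4, at 0.639-fold and 0.774-fold, against 42.6% and 19.9% of all genes. In PD-1 progenitor cells 15 of 20 class I genes were higher and none lower (28.3% and 3.1% of all genes), in cells with PD-1 only 14 of 20 and none (43.3% and 11%), in the remaining CD8 cells 14 of 20 and none (35.9% and 5.9%), and in effector cells without PD-1 14 of 19 and none (17.4% and 2.03%). The medians of the list beside those of all genes were 0.79 and 0.75 against 0.40 and 0.37 (log2) in cells with PD-1 and TIM-3. In cycling cells they were 0.69 and 0.49 against 0.59 and 0.54.

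Few GTPases reached 20 CPM in these states, and those that did split. In cycling cells 4 of 6 were lower than in naive or central memory cells and 1 was higher, against 17.8% and 54.7% of all genes. The higher one was Gbp3, at 26.3 and 30.7 CPM against 6.84 and 11.01 CPM, 3.85-fold and 2.79-fold. Igtp, an immunity-related GTPase also called Irgm3, stood at 13.8 and 14.8 CPM against 41.4 and 47.4 CPM, 0.334-fold and 0.313-fold. Irgm1 was at 0.406-fold and 0.297-fold, but its levels were below 20 CPM in part of these cells. Gbp7 did not follow either order, at 1.05-fold and 1.23-fold. Gbp3 was also the GTPase that was higher in cells with PD-1 and TIM-3, at 20.5 and 25.04 CPM. Of the 6 measured there, Igtp and Ifi47 were lower. Of all genes, 47.3% were higher and 13.6% lower in that state. In interferon-stimulated cells 17 of 20 class I genes and 5 of 10 GTPases were higher than in naive or central memory cells and none was lower, against 43.6% higher and 9.55% lower of all genes. Gbp3 was 4.17-fold and 3.59-fold higher there and Gbp5 was 3.58-fold and 1.83-fold higher. The state was defined by type I interferon response genes that are not members.

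**Figure D2:**
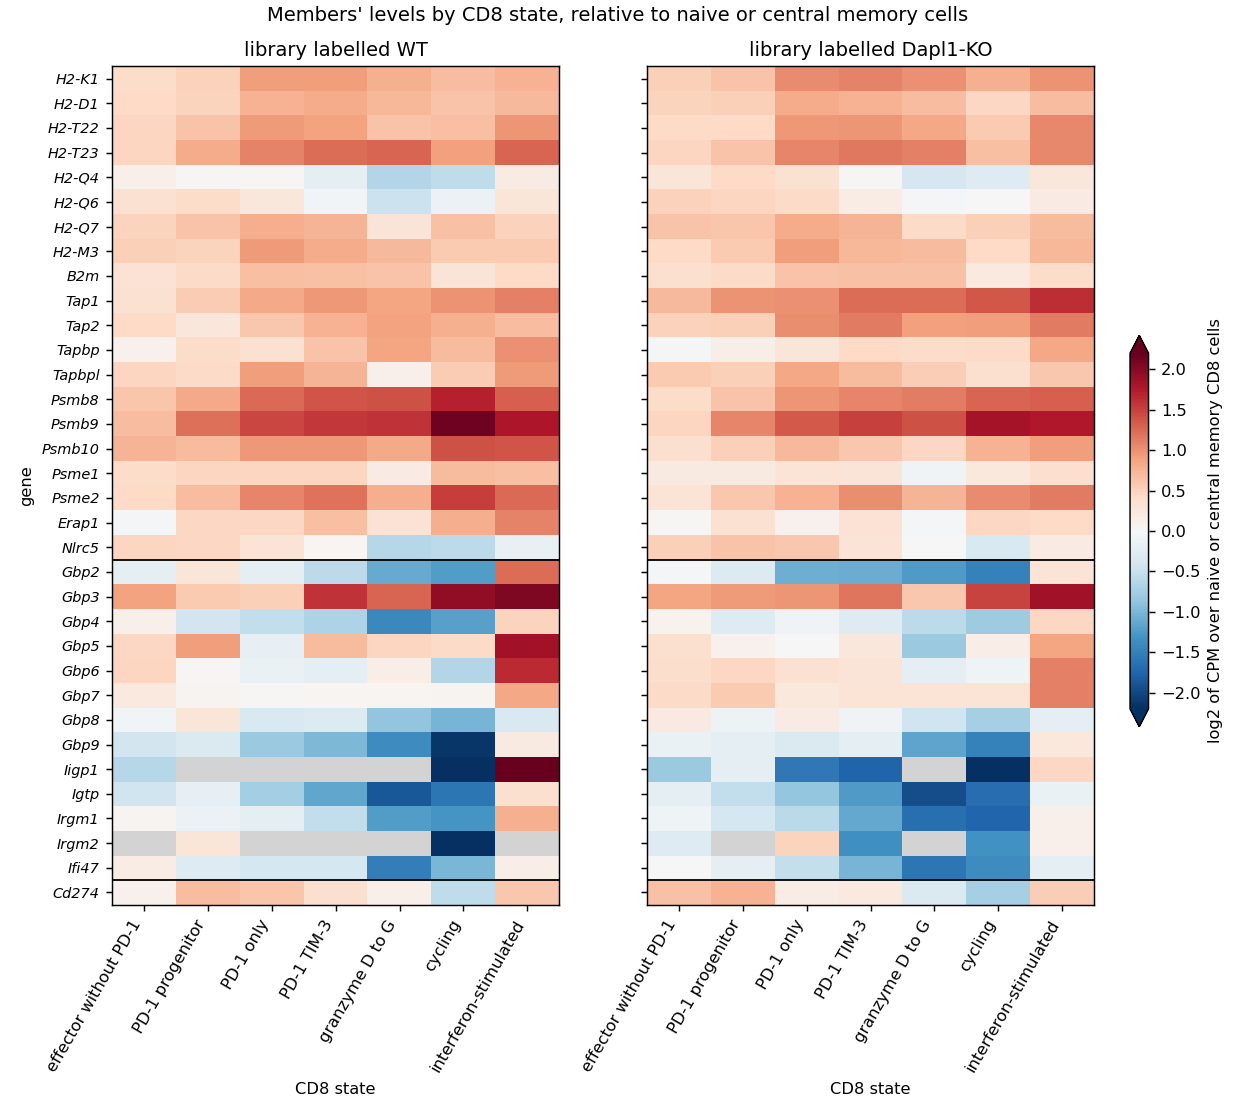
Log2 ratio of each member's CPM in 7 CD8 states (columns) to naive or central memory CD8 cells, with 1 panel per library; red is higher, blue is lower, colours end at the scale's limits and grey marks fewer than 10 counts in either state. Psmb9 is red throughout, Igtp is blue in cycling cells (0.334-fold and 0.313-fold), and Gbp3 is red where most other GTPases are blue.

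Among the 4 lymphocyte gates, regulatory T cells had the highest summed levels of both lists, in both libraries. The class I sum was 12346 and 14192 CPM, against 8501 and 10673 CPM in CD8 cells, and the GTPase sum was 482 and 555 CPM, against 225.3 and 269.1 CPM. Cycling cells, which were low in GTPases, weigh heavily in these CD8 values. In naive or central memory CD8 cells the GTPase sum was 300.03 and 357.6 CPM. In interferon-stimulated CD8 cells it was 522 and 474 CPM. By gene, 9 of 19 class I genes and 8 of 9 GTPases were higher than in CD8 cells in both libraries, and none was lower, against 23.3% higher and 8.1% lower of all genes. Igtp stood at 100.5 and 103.1 CPM against 21.5 and 22.3 CPM, 4.68-fold and 4.63-fold. Iigp1, an effector GTPase, stood at 25.5 and 35.3 CPM against 2.66 and 2.53 CPM, 9.58-fold and 13.9-fold. Gbp7 stood at 114.1 and 107.7 CPM against 46.9 and 49.8 CPM. Tap1 and Tap2, the subunits of the peptide transporter, stood at 132.7 and 151.8 CPM (Tap1) and at 106.7 and 125.6 CPM (Tap2), against 88.6 and 99.3 CPM and 65.4 and 82.1 CPM in CD8 cells. The proteasome genes did not reach the limit in both libraries. Psmb8 was at 1.09-fold and 0.975-fold and Psmb10 at 1.01-fold and 0.948-fold, while Psmb9 was at 1.19-fold and 1.23-fold. The activator genes were at 1.21-fold and 1.09-fold (Psme1) and at 1.20-fold and 1.31-fold (Psme2).

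CD4 cells had class I levels close to CD8 cells, with summed values of 8656 and 11267 CPM. Of the class I genes, 1 was higher than in CD8 cells in both libraries and 4 were lower, against 21.6% and 16.8% of all genes. The higher gene was H2-Q4 (174.4 and 139.2 CPM) and the lower genes were Psmb8, Psmb9, Psmb10 and Erap1, the peptidase that trims peptides. All 4 GTPases that reached the level in both libraries were higher, among them Igtp, at 55.2 and 62.4 CPM. NK cells carried 4 higher and 4 lower class I genes of 19, against 20.2% and 25% of all genes. H2-Q6 was 2.04-fold and 1.74-fold higher than in CD8 cells and H2-D1 was 1.52-fold and 1.38-fold higher, while Tap1 was at 0.689-fold and 0.629-fold and Psmb9 at 0.698-fold and 0.521-fold.

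Myeloid cells differed by gene rather than in 1 direction, with 2 class I genes higher and 8 lower than in CD8 cells, of 19, and 2 of 7 GTPases higher, against 23.4% and 24.8% of all genes. Tapbp, which encodes tapasin, was 1.88-fold and 1.43-fold higher and B2m 1.48-fold and 1.27-fold, while H2-Q7 was at 0.173-fold and 0.236-fold. Cd274 stood at 282.2 and 348.2 CPM in myeloid cells, against 62.1 and 66.9 CPM in NK cells, 39.1 and 48.02 CPM in regulatory T cells, 26.3 and 59.8 CPM in CD4 cells and 19.9 and 24.3 CPM in CD8 cells. The order from myeloid to NK cells was the same in both libraries, and only the places of CD4 and regulatory T cells changed. Gbp2 stood at 402.8 and 289.2 CPM in myeloid cells, but 85 of its 137 counts in the library labelled WT came from 1 cell, and all 11 counts of Iigp1 in that library's myeloid cells came from 1 cell.

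Between the labels, CD8 cells of the library labelled Dapl1-KO had higher levels of most class I genes. Of the 20, 12 were higher by the rule and 1 was lower, against 14.7% of all 4561 genes higher and 7.21% lower. The median log2 ratio of the list was 0.34, beside 0.07 for all genes. The summed level was 8501 and 10673 CPM, 1.26-fold.

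The classical heavy chains differed modestly. H2-K1 stood at 1398 and 1817 CPM, a log2 ratio of 0.38 (0.37 to 0.39). H2-D1 stood at 1462 and 1662 CPM and stayed within the limit, at 0.19 (0.17 to 0.20). B2m, the shared light chain, stood at 2130 and 2684 CPM, at 0.33 (0.32 to 0.34). Among the non-classical chains, H2-T23 stood at 242.3 and 326.9 CPM (0.43) and H2-Q7, which encodes Qa-2, at 697.5 and 934.8 CPM (0.42). H2-M3, which presents formylated peptides, stood at 37.03 and 48.6 CPM (0.39). H2-T22 was within the limit at 137.7 and 165.3 CPM.

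H2-Q4, another non-classical heavy chain, went the other way. It stood at 139 and 101.2 CPM, a log2 ratio of -0.46 (-0.50 to -0.42). It was lower by the rule in 4 of 5 gates and 8 of 9 CD8 states and higher in none. The gate that did not reach the limit was regulatory T cells, at 142.9 and 123.04 CPM (-0.22), and the state was PD-1 progenitor cells, at 171.1 and 143.8 CPM (-0.25). Its neighbour H2-Q6 was at 146.8 and 136.4 CPM (-0.11) and within the limit. H2-Q10, a class I gene outside the 34 that encodes a secreted molecule, was the only other class I gene at 20 CPM, and it was lower too, at 45.6 and 31.6 CPM (-0.53).

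The genes that make and load the peptides had the largest differences of the class I list. Psmb9 stood at 246.1 and 374.9 CPM, a log2 ratio of 0.61 (0.58 to 0.63), and was higher in 9 of 9 CD8 states. Psmb10 stood at 137.7 and 196.3 CPM (0.51) and Psmb8 at 733.7 and 934.5 CPM (0.35). Both activator subunits were higher, Psme1 at 400.6 and 541.9 CPM (0.44) and Psme2 at 282.3 and 366.9 CPM (0.38). Tapbp stood at 71.8 and 102.3 CPM (0.51) and Tap2 at 65.4 and 82.1 CPM (0.33). In this group 4 genes did not reach the limit. Tap1 stood at 88.6 and 99.3 CPM (0.16), Tapbpl, a tapasin relative that edits peptides, at 39.9 and 44.6 CPM (0.16), Erap1 at 25.3 and 31.3 CPM (0.31), and Nlrc5 at 19.6 and 23.1 CPM (0.24).

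The constitutive proteasome subunits that Psmb8, Psmb9 and Psmb10 replace did not reach the limit. Psmb5 stood at 195.8 and 225.8 CPM (0.21), Psmb6 at 235.1 and 256.4 CPM (0.13) and Psmb7 at 122.7 and 133.6 CPM (0.12). Of the 9 constitutive and loading genes, 2 were higher and none lower in CD8 cells as a whole, against 14.7% and 7.21% of all genes. They were Calr, which encodes calreticulin, at 330.2 and 482.4 CPM (0.55), and Pdia3, which encodes the peptide-loading partner ERp57, at 207.3 and 272.5 CPM (0.39). By state the list differed more. In naive or central memory cells 7 of 8 were higher, with a median log2 ratio of 0.51 beside 0.39 for the class I genes, and in effector cells without PD-1 6 of 9 were higher, with 0.39 beside 0.37. In those states 20.9% and 21.5% of all genes were higher.

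The GTPases were low in CD8 cells but well above the 0.0462 and 0.0347 CPM that 3 counts make in this gate. The minimum of 20 CPM, a chosen cutoff, was reached by 5 of 13. Of these 1 was higher and none lower, near the 14.7% and 7.21% of all genes, with a median log2 ratio of 0.28. The higher one was Gbp3, at 19.7 and 27.2 CPM (0.46). Ifi47 stood at 36.2 and 43.9 CPM (0.28), Gbp4 at 23.6 and 29.04 CPM (0.30), Gbp7 at 46.9 and 49.8 CPM (0.09) and Igtp at 21.5 and 22.3 CPM (0.05). Below the minimum, Gbp2 stood at 10.2 and 18.8 CPM, with a log2 ratio of 0.88 (0.75 to 1.01), and Gbp6 at 10.5 and 18.8 CPM, with 0.84 (0.71 to 0.97). Gbp5 stood at 13.2 and 14.99 CPM and Gbp8 at 15.2 and 19.4 CPM. Gbp9 stood at 11.1 and 8.95 CPM and Irgm1 at 12.5 and 11.4 CPM, while Iigp1 and Irgm2 were below 3 CPM in both libraries. Cd274 stood at 19.9 and 24.3 CPM (0.29) and stayed within the limit.

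**Figure D3:**
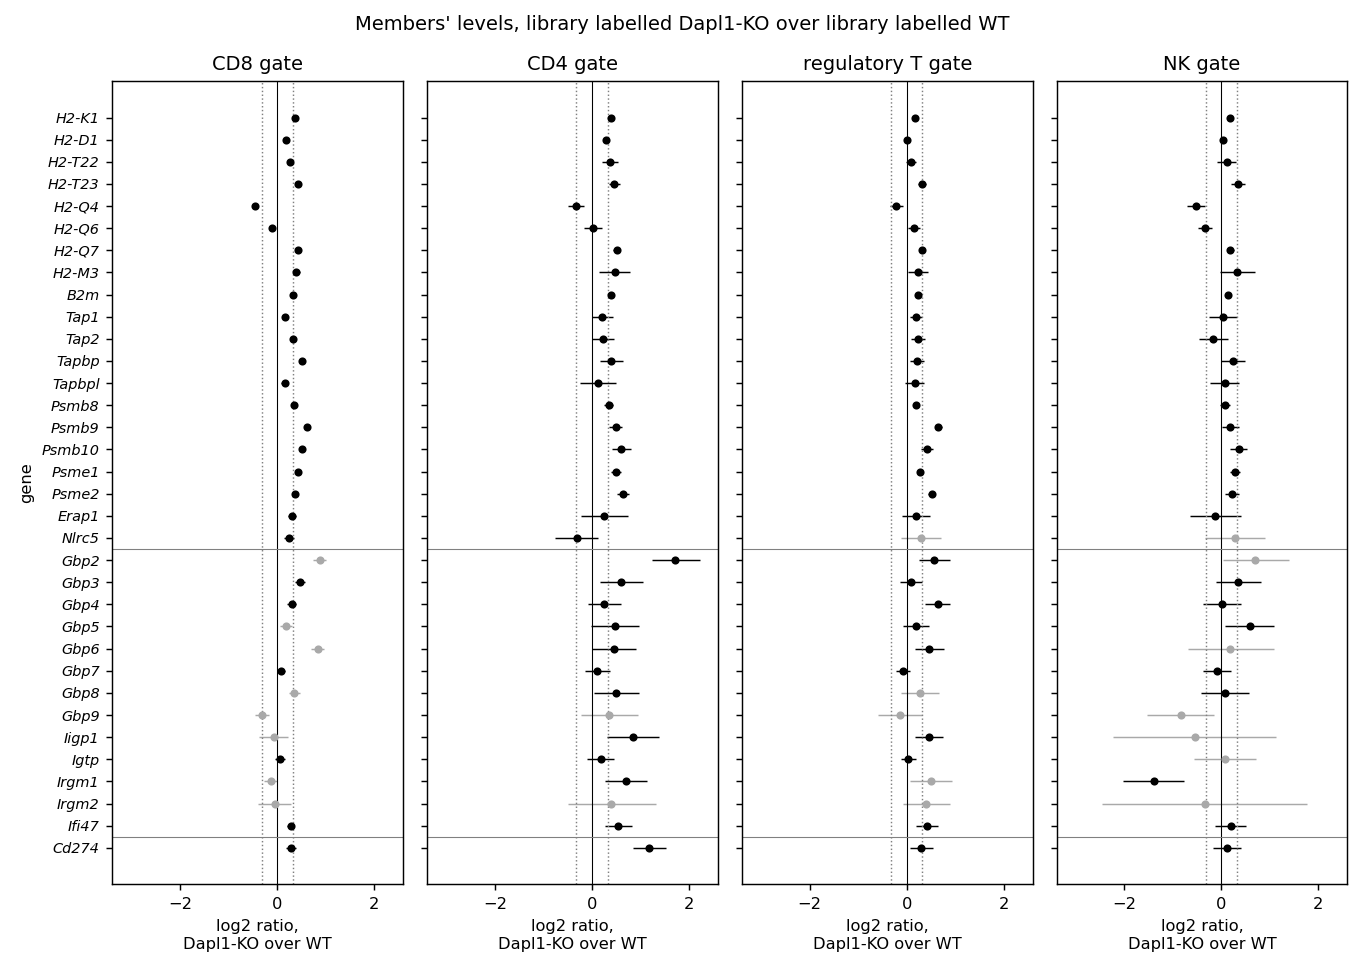
Log2 ratio of Dapl1-KO to WT, by library label, for each member (rows) in 4 gates, with exact 95% intervals of the counts (bars); grey points are below 20 CPM in both libraries and dotted lines mark the limit of 0.32 either way. Most class I points lie right of 0 in the CD8 and CD4 gates, H2-Q4 lies left of 0 in all 4, and Gbp2 in CD4 cells is the farthest right at 1.72.

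In CD4 cells both lists had members past the limit. Of 20 class I genes 12 were higher and 1 was lower, against 13.2% and 8.5% of all genes, with a median log2 ratio of 0.38. Of 11 GTPases 7 were higher and none lower, with a median of 0.51. Gbp2 stood at 12.2 and 40.2 CPM, a log2 ratio of 1.72 (1.24 to 2.22), and Iigp1 at 12.5 and 22.5 CPM (0.85). Cd274 stood at 26.3 and 59.8 CPM, with 1.19 (0.84 to 1.54). No single cell held more than 8 of the 152 Gbp2 counts of the library labelled Dapl1-KO. After thinning each cell to 3000 UMIs, Gbp2 was detected in 3.79% and 11.05% of CD4 cells, against 8.09% and 18.3% before thinning. None of the gates is known to lack the message, so a background share cannot be read from them. Marker lists of other cell types also differed in the CD4 gate. The 7 NK markers summed to 41.4 and 134.1 CPM, with none and 1 of them at 0. The 4 CD8 markers, of which Cd8a and Cd8b1 were at 0 because the gate excludes them, summed to 1693 and 2657 CPM. The 7 myeloid markers, none at 0, summed to 132.2 and 212.4 CPM. The part of these marker lists in the CD4 values was not tested.

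Regulatory T cells had fewer class I genes past the limit, 3 of 19 higher and none lower, against 6.37% and 11.7% of all genes. The 3 were Psmb9 (293.9 and 463 CPM, 0.66), Psme2 (337.4 and 481.3 CPM, 0.51) and Psmb10 (139 and 186.1 CPM, 0.42). Class I heavy chains stayed within the limit, but not all were level. H2-D1 stood at 2456 and 2472 CPM (0.01). H2-T23, at 362.6 and 452.7 CPM, and H2-Q7, at 1024 and 1273 CPM, were just under the limit. H2-Q4 went the other way, at 142.9 and 123.04 CPM. Of 9 GTPases 5 were higher, Gbp2, Gbp4, Gbp6, Iigp1 and Ifi47, with Gbp4 at 29.9 and 46.7 CPM (0.64). NK cells had 2 class I genes higher (H2-T23 and Psmb10) and 2 lower (H2-Q4 and H2-Q6), of 19, against 10.1% and 8.39% of all genes. Of 7 GTPases in NK cells Gbp5 was higher (18.5 and 27.6 CPM, 0.58) and Irgm1 was lower (24.8 and 9.48 CPM, -1.39). In the 30 and 75 myeloid cells 2 of 19 class I genes were higher (H2-K1 and H2-Q7) and 1 was lower (H2-Q4), and 4 of 9 GTPases were higher (Gbp3, Gbp4, Gbp5 and Irgm1) and 1 lower (Gbp2), against 8% and 8.38% of all genes. These values rest on as few as 4 counts, for Gbp5 in the library labelled WT.

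By CD8 state, more class I genes passed the limit outside cycling cells than in them. In naive or central memory cells 11 of 20 class I genes were higher and 1 lower, against 20.9% and 16.5% of all genes. Psmb10 stood at 65.1 and 124.1 CPM there (0.93). Effector cells without PD-1 had 13 higher and 1 lower (21.5% and 7.44%), cells with PD-1 and TIM-3 had 12 and 1 (14% and 9.95%), cells with PD-1 only had 11 and 1 (17% and 7.53%), and PD-1 progenitor cells had 11 and 0 (13.8% and 7.37%). Cells rich in granzymes D to G had 13 and 1 (16.5% and 9.94%), interferon-stimulated cells 11 and 2 (18.3% and 14%), and the remaining CD8 cells 16 and 1 (20.5% and 6.82%). In cycling cells 2 of 19 were higher and 1 lower (8.39% and 7.37%), and the median was 0.23 beside 0.01 for all genes. The higher genes were Psmb9, at 332.5 and 445.7 CPM (0.42), and Tapbp, at 79.7 and 105.1 CPM (0.40). Cycling cells were 21.2% and 30.4% of CD8 cells. They held 32247215 of the 64997400 UMIs and 48934163 of the 86398932 UMIs of the CD8 gate. The summed values of all CD8 cells therefore weigh cycling cells heavily.

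GTPases past the limit were found in some CD8 states and not in others. Of those at 20 CPM, 5 of 9 were higher in effector cells without PD-1 (21.5% of all genes), 5 of 7 in cells with PD-1 only (17%), 4 of 8 in PD-1 progenitor cells (13.8%) and 3 of 6 in cells with PD-1 and TIM-3 (14%), and none was lower in these 4 states. In cells rich in granzymes D to G 2 of 3 were higher (16.5%) and in cycling cells 1 of 4 (8.39%), with none lower. In naive or central memory cells 2 of 8 were higher and 1, Gbp9, was lower (20.9% and 16.5%), and in the remaining CD8 cells 5 of 8 were higher and 1, Gbp7, was lower (20.5% and 6.82%). Gbp2 stood at 13.8 and 34.2 CPM in effector cells without PD-1 (1.31) and at 15.8 and 35.4 CPM in naive or central memory cells (1.16). In interferon-stimulated cells none of 12 was higher and 1 was lower (18.3% and 14%). That gene was Iigp1, at 49.3 and 9.94 CPM (-2.31), with 13 of its 45 counts in the library labelled WT in 1 cell.

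Genes of interferon-gamma signalling went in both directions in CD8 cells. The list had a median log2 ratio of 0.10 beside 0.07 for all genes, of which 14.7% were higher and 7.21% lower. Among the genes named here, Ifng, Ifngr1 and Irf8 were higher under the Dapl1-KO label. Ifng itself stood at 195.2 and 323.6 CPM (0.73), Ifngr1, a receptor chain, at 301.9 and 380.3 CPM (0.33) and Irf8, a transcription factor, at 167.1 and 291.6 CPM (0.80). The lower genes were the feedback inhibitors Socs1, at 62.2 and 39.8 CPM (-0.64), and Socs3, at 91.0 and 47.7 CPM (-0.93). Irf1 stood at 74.1 and 73.99 CPM and Jak2 at 32.0 and 32.0 CPM.

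The few Y-linked cells of the library labelled WT allowed a comparison within 1 library. Among its CD8 cells, those with Y-linked UMIs and no Xist or Tsix, set over those with Xist or Tsix and no Y-linked UMI, had a median log2 ratio of -0.16 for the class I genes and -0.08 for all genes. By the rule, 1 of 20 class I genes was higher and 5 were lower, near the 7.4% and 19.7% of all genes. The GTPases had no single direction, with a median of -0.17 over the 5 at 20 CPM and 0.06 over all 13, of which 8 were above 0. Psmb9 stood at 262.8 CPM in the Xist cells and 191.4 CPM in the Y-linked cells. H2-Q4 stood at 130.8 and 167.5 CPM (0.36). When Y-linked cells alone were compared between the libraries, the class I median in CD8 cells was 0.49 and H2-Q4 was at -0.77. The compared cells differed in their mix of states. Of the 629 and 3857 Y-linked CD8 cells, 199 and 376 were naive or central memory cells and 108 and 1392 were cycling. Of the 3049 Xist cells of the library labelled WT, 661 were naive or central memory cells and 726 were cycling. The part of this mix in the values was not tested.

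In single cells of the CD8 gate as a whole, mean class I levels went with the number of GTPase UMIs, but not at each step in every state. Each CD8 cell was thinned to 3000 UMIs. In the library labelled WT, cells with no GTPase UMI had a mean of 23.8 class I UMIs, cells with 1 to 2 had 24.5 and cells with 3 to 5 had 25.8. In the library labelled Dapl1-KO the means were 32.2, 32.9 and 35.0, and 38.4 in the 60 cells with 6 or more. Over all CD8 cells the step was smaller than the difference between the libraries, whose overall means were 24.3 and 32.8 class I UMIs per cell. Naive or central memory cells, the state lowest in class I, were 25.8% and 10.6% of CD8 cells. The bins and the overall means mix CD8 states. The part of that mix in the step and in the difference between the libraries was not tested. Within naive or central memory cells, with overall means of 16.8 and 21.8, the step differed. There the means ran from 15.8 to 19.2 and from 20.6 to 23.8, up to 3 to 5 GTPase UMIs. Over the same bins of the library labelled Dapl1-KO, PD-1 progenitor cells ran from 29.3 to 37.4. Cells with PD-1 only had 37.5, 37.0 and 38.4, with no steady rise.

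In regulatory T cells the means ran from 36.3 to 46.7 and from 40.1 to 56.2 class I UMIs, between cells with 0 and cells with 6 or more GTPase UMIs. In CD4 cells they ran from 22.8 to 30.7 in the library labelled WT, up to 3 to 5 GTPase UMIs, and in the other library from 33.1 to 50.8, where the last bin held 22 cells. In NK cells they ran from 30.6 to 36.8 and from 34.6 to 38.5 up to 3 to 5 GTPase UMIs, with 34.6 and 34.7 in the first bins of the library labelled Dapl1-KO. Detection of 1 GTPase went with detection of another to differing degrees, upward for 11 of 11 genes under the WT label and for 12 of 12 under the Dapl1-KO label. Of CD8 cells with a Gbp2 UMI, 61.7% and 66.9% had a UMI of another GTPase, against 47.7% and 51.6% of cells without one. For Gbp9 the shares were 64.9% and 70.7%, against 47.5% and 53.1%, and for Gbp7 they were 46.0% and 55.4%, against 42.4% and 47.3%. The difference was small for Gbp3 (48.9% against 47.5%) and Irgm1 (50% against 47.2%) in the library labelled WT. Gbp9 overlaps Gbp4 and Gbp8 on its strand, and its counts are among the uncertain ones. Cells of a bin share a library and are not replicates.

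**Figure D4:**
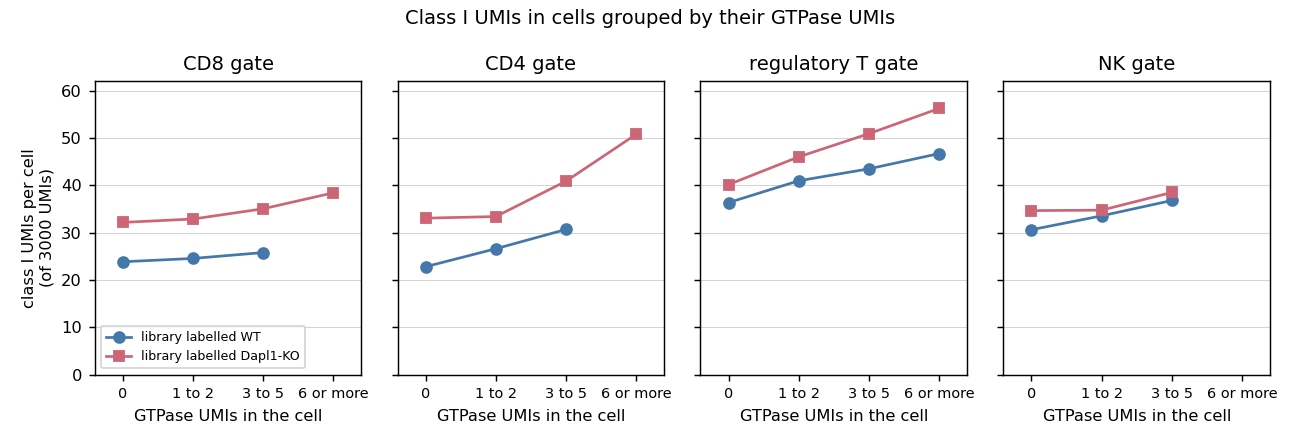
Mean class I UMIs per cell (y axes, from 0) in cells thinned to 3000 UMIs, by the number of GTPase UMIs in the cell (x axes), for 4 gates and both libraries; bins under 20 cells are left out. In regulatory T cells the mean runs from 36.3 to 46.7 and from 40.1 to 56.2, and in CD8 cells from 23.8 to 25.8 and from 32.2 to 38.4.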

How the data were processed

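The authors deposited raw UMI counts, stored as whole numbers without normalization. Cell Ranger 5.0.0 and the builds mm10 and GRCm38 are listed in the submitters' processing notes. Groups were taken from the genotype labels. The 34 members and all gene lists and gates were chosen with earlier results of these data known. Of barcodes in both libraries, the copy with at least 2 times the UMIs was kept (21 without a clear larger copy were dropped). Cells needed 500 genes and at most 10% mitochondrial counts. Scrublet (scanpy 1.11.5) called 0 doublets by its own threshold, so the highest-scoring cells were removed at 0.8% per 1000 cells (873 and 1058). Counts were summed per library and gate and given as CPM. A ratio sets Dapl1-KO over WT with an exact conditional interval (scipy 1.17.1), called at 0.32 (log2) and 20 CPM. No p-value is given. All members are named; 1 gene of the signalling list is not reported here. Cells differ in depth, so shares and bins used thinned cells. The calculation was tested on simulated data. Alternatives are in the closing section.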

Additional observations from a re-analysis of the deposited data

Results flagged for a closer look

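The log2 ratio of Gbp2, Dapl1-KO over WT label, was above 0 in CD4 cells (1.72) and regulatory T cells (0.57) and below 0 in myeloid cells (-0.48). The difference between gates was not tested. In the library labelled WT 85 of the 137 myeloid Gbp2 counts came from 1 cell. Irgm1 was higher in CD4 cells (0.70) and myeloid cells (1.999) and lower in NK cells (-1.39), and that difference was not tested either. Its myeloid value rests on 6 and 49 counts and its NK value on 70 and 34, of which 11 of the 70 came from 1 cell, as did 13 of the 49 myeloid counts.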

How the results depend on the processing

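No paired analysis was possible because each label has 1 library. The class I median in CD8 cells (0.34) became 0.28 when both copies of shared barcodes were kept, with the cell and doublet filters still applied. It became 0.28 with median-of-ratios scaling, 0.43 as a mean over cells and 0.49 in Y-linked cells. It was 0.42 without cycling and interferon-stimulated cells, an alternative chosen after seeing the data. The GTPase median in CD8 cells (0.28) became 0.18 with both copies kept, 0.18 with no minimum level and 0.38 as a mean over cells. It was 0.37 in Y-linked cells and 0.38 without cycling and interferon-stimulated cells. In Y-linked cells the class I median was 0.61 in CD4 cells and 0.57 in regulatory T cells. The other 66 alternative medians lay within a range set by the reported members. It runs from the median of their lower interval bounds to the median of their upper bounds. This range is not an exact interval of the list median, and it can be wide. For the class I genes in myeloid cells it ran from -0.38 to 0.60. Among the 66, the class I median in myeloid cells (0.11) turned to -0.07 under the stricter cell filter. Of the 34 members, 16 passed the limit upward in CD8 cells at any level as reported. The number was 9 with both copies kept, 10 with median-of-ratios scaling and 21 as a mean over cells. It was 19 in Y-linked cells and 21 without cycling and interferon-stimulated cells. The causes were not tested. Y-linked cells were too few in NK (17) and myeloid (1) cells of the library labelled WT. At 5000 UMIs per thinned CD8 cell, class I means over the 4 bins were 39.7, 40.7, 41.0 and 48.5 under the WT label. The last of these bins held 61 cells. Under the Dapl1-KO label the means ran from 52.4 to 61.7. In each of the 7 settings run for it, summed class I was higher and summed GTPase lower in cycling cells than in naive or central memory cells in both libraries. The chosen minimum limits the GTPase counts, as 8 of 13 were under 20 CPM in CD8 cells.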
